A study of Mus musculus with 9 samples.

Results

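The 40 genes described here encode the core of TGF-beta, activin and bone morphogenetic protein (BMP) signalling: 9 ligand genes, 10 receptor genes, a co-receptor, a decoy receptor, 8 SMAD genes, 5 secreted antagonists or follistatin-family genes, 4 latent TGF-beta binding proteins, the protease gene Bmp1 and the TGF-beta-induced matrix gene Tgfbi. They were chosen by gene symbol from a counts table of 55359 genes, and all 40 were found. Of these, 38 had enough counts to be tested, and Bmp2 and Bmp4 did not. RNA was sequenced in bulk from preadipocytes of the mouse inguinal fat pad, a subcutaneous white depot. There were 3 libraries from cells that had not been induced, called day 0, 3 from day 4 and 3 from day 8 of beige differentiation. Cells of days 4 and 8 had received, for 2 days, an induction medium with dexamethasone, IBMX, indomethacin, insulin, triiodothyronine and rosiglitazone, and then a maintenance medium from which dexamethasone, IBMX and indomethacin were left out. The genotype, sex and age of the mice are not given in the sources used here. Nor is it given whether replicates came from different animals or cultures. A p-value thus speaks only of the spread among libraries of the same day, which may be technical. That spread was estimated from all 9 libraries together, so the day 4 libraries also bear on the p-values of day 8 against day 0.

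Ligands of this superfamily are secreted as dimers, and the TGF-betas are held latent in the matrix by binding proteins until they are released. A dimer joins type II receptors, which phosphorylate type I receptors. These phosphorylate receptor-regulated SMADs, SMAD2 and SMAD3 downstream of TGF-beta and activin, and SMAD1, SMAD5 and SMAD9 downstream of BMPs. SMAD4 joins them in the nucleus, while SMAD6 and SMAD7, secreted antagonists and decoy receptors limit the signal. In fat, TGF-beta and activin are known to hold back adipocyte differentiation and to favour fibrogenic and contractile programmes, and several BMPs are known to promote the adipocyte lineage.

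Total counts were between 26387408 and 31474490 per library, and a count of 3 in a library corresponded to 0.0809 to 0.125 CPM. CPM, the unit used below, is the count per 1e6 counts of a library after TMM scaling. The labels were checked against marker genes. The summed level of 10 adipocyte markers was 104 to 128 CPM at day 0, 24584 to 43452 CPM at day 4 and 31468 to 35204 CPM at day 8, with Lep and Cfd at 0 at day 0. The 8 beige and brown adipocyte markers summed to 1.42 to 1.55 CPM at day 0, with Ucp1, Cox8b and Otop1 at 0, to 372 to 1005 CPM at day 4 and to 1608 to 2674 CPM at day 8. The 7 myofibroblast and contractile markers summed to 2997 to 4145 CPM at day 0, 86.2 to 423 CPM at day 4 and 291 to 317 CPM at day 8. The 10 macrophage markers summed to at most 105 CPM and the 9 endothelial markers to at most 37.2 CPM in any library, with Tie1 at 0 at day 8. Mural cell markers summed to at most 72.6 CPM, mesothelial markers to at most 50.9 CPM and Schwann cell markers to at most 25.3 CPM. The lymphocyte markers Cd3d and Ms4a1 were at 0 on every day. Replicate 2 of day 4 stood apart from the other day 4 libraries: its first principal component score was 13.7, against 84.6 and 69.5. Its adipocyte markers summed to 24584 CPM, the lowest of the 3, and its 8 adipocyte precursor markers to 2137 CPM, against 841 and 960. It was the day 4 library nearest to the day 0 mean for 27 of the 38 tested signalling genes (71.1%) and for 61.9% of all tested genes. Results that turn on it are given with and without it.

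Most of the signalling genes were lower after induction. At day 4, 25 of the 38 fell and 2 rose against day 0 (Acvr2b and Ltbp4), with a median log2 fold change of -0.91. At day 8, 31 fell and 2 rose against day 0 (Acvr2b and Nog), with a median of -1.23. The calls are at an edgeR adjusted p under 0.05, and they stand beside a background in which many genes changed. Of 14649 genes tested, 26% were called lower and 28.6% higher at day 4 (54.6% in all), and 29.9% lower and 33.5% higher at day 8 (63.4% in all), with medians of -0.01 and 0.03. The share called lower was thus 65.8% of the signalling genes at day 4 and 81.6% at day 8. Of the called signalling genes, all 27 at day 4 and 31 of 33 at day 8 had no overlap between the libraries of the days compared, as did 98.2% and 99% of all called genes. Called changes of at least 2-fold were seen downward in 17 of the 38 and upward in 1 at day 4, against 16% and 18.6% of all genes, and downward in 20 and upward in 2 at day 8, against 19.7% and 22.5% of all genes. Both comparisons share the day 0 libraries, so they are not independent. The summed level of the 40 genes was 5704 to 6181 CPM at day 0 and 1165 to 1427 CPM at day 8. At day 4 it was 1458 to 3491 CPM, with replicate 2 the highest. Much of this sum was Fstl1, with 2660 to 3020 CPM at day 0, 300 to 1383 CPM at day 4 and 187 to 310 CPM at day 8. In bulk RNA, fewer cells of a type and less RNA per cell cannot be told apart. Contractile markers fell too, 6 of 7 at day 4 and 7 of 7 at day 8 against day 0, with the sums given above. Of 7 tested precursor markers, 3 fell and 3 rose at day 4, and 4 fell and none rose at day 8, and the summed level of all 8 was 2244 to 2419 CPM at day 0, 841 to 2137 CPM at day 4 and 669 to 899 CPM at day 8. The part of these cell type markers in the result was not tested. Scaling by total counts moved the median of all genes to -0.34 at day 4 and -0.33 at day 8 and left 35.3% and 37.5% of the calls higher, against 52.4% and 52.9% with TMM. With it, 28 signalling genes were called lower and 1 higher at day 4, and 36 lower and 2 higher at day 8. Over all 14649 genes it called 8704 at day 4 and 9676 at day 8, against 7998 and 9290 with TMM. Without replicate 2 of day 4, 31 signalling genes were called lower at day 4 and 35 at day 8, with 2 higher each time. The calls over all genes then numbered 8947 at day 4, 50.6% of them higher, and 9848 at day 8, 51.6% of them higher.

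**Figure D1:**
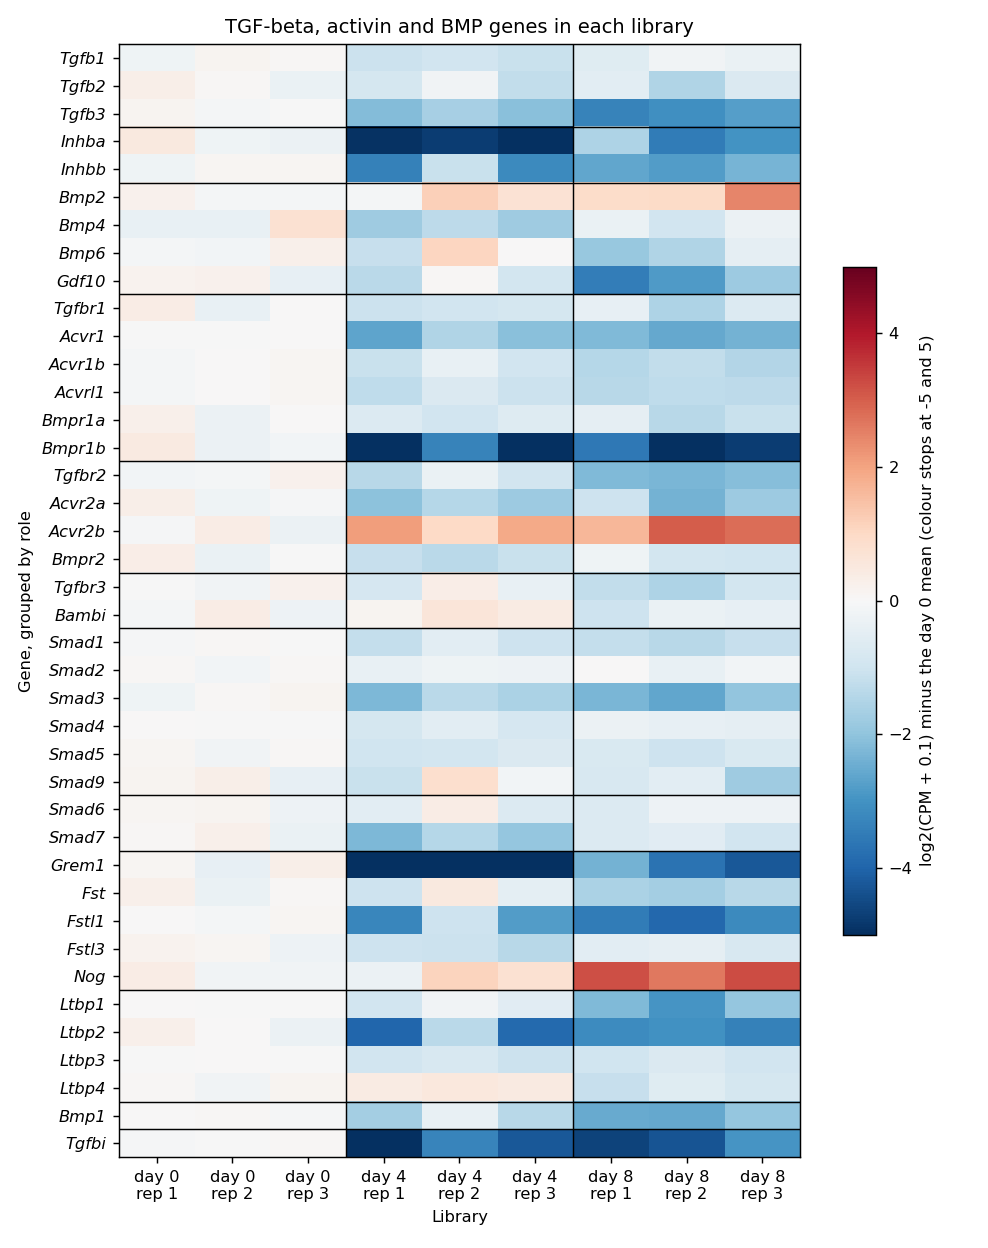
Level of each of the 40 genes (rows, grouped by role with lines between groups) in each of the 9 libraries (columns, by day), as log2(CPM + 0.1) minus the day 0 mean of the gene, with blue for lower and red for higher and the colour stopping at -5 and 5. Blue dominates days 4 and 8, the second library of day 4 is paler in many rows, and the clearest red rows are Acvr2b and, at day 8, Nog.

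The promoters of 3 genes with large changes are shown: Inhba and Grem1 fell most among the ligands and antagonists at day 4 and were higher again at day 8, while Acvr2b was higher on both later days. Each runs from 250 bases before to 50 bases after the start of the gene, 5' to 3' on the gene's strand, from RefSeq on build GRCm38.p6: chr13:16011601-16011900 on the plus strand for Inhba, chr2:113758599-113758898 on the minus strand for Grem1 and chr9:119401928-119402227 on the plus strand for Acvr2b. Capitals mark the SMAD box, CAGAC or its reverse complement GTCTG, and the GC-rich element GGCGCC described for SMAD1 and SMAD5.
Inhba: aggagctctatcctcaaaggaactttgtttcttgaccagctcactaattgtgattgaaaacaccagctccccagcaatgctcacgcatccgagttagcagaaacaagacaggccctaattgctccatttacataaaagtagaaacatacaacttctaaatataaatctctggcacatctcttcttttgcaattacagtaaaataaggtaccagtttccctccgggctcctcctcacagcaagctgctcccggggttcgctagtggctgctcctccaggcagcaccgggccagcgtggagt
Grem1: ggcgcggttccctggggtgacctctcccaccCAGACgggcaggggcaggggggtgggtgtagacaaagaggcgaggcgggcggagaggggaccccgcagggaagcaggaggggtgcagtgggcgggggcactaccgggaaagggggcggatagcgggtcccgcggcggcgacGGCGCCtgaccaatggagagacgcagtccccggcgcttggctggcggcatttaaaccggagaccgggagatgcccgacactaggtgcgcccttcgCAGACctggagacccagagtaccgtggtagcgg
Acvr2b: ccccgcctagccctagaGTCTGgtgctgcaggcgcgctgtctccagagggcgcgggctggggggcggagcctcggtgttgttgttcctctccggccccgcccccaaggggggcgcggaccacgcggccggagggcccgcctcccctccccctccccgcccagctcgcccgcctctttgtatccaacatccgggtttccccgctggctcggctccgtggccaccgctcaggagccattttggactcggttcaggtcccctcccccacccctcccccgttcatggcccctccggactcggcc
The Grem1 window held 2 SMAD boxes and 1 GC-rich element, the Acvr2b window 1 SMAD box, and the Inhba window neither. Of the 40 genes, 29 had a promoter in the table, and the first one listed was used. Nog, which rose most at day 8 against day 0, was not among these 29. A SMAD box on either strand was present in 13 of these 29 windows (44.8%), against 49.6% of all 32851 windows of the same length. The element GGCGCC was present in 9 of 29 (31%), against 11.9% of all windows. The median GC content was 66.3% in the 29 windows and 52.7% over all windows, and GGCGCC is itself made of G and C only. The core of the cAMP response element, TGACG, on either strand, was in 4 of the 29 windows (13.8%) and in 20.8% of all, and TATAAA, on either strand, in 4 (13.8%) and in 13.6% of all. The motifs can overlap at their ends, which was not corrected for, and a match is a description of the letters and not of binding.

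The 3 TGF-beta ligand genes took different courses. Tgfb3 (ENSMUSG00000021253), the TGF-beta gene with the highest level per kilobase of exon at day 0, had 118, 102 and 106 CPM at day 0, 24.1, 34.2 and 25.5 CPM at day 4 and 10.7, 12.9 and 16.0 CPM at day 8. It stepped down on each day without overlap between days. The log2 fold change was -1.96 ± 0.18 at day 4 (± SE throughout, edgeR adjusted p = 1.09e-05) and -3.05 ± 0.19 at day 8 (edgeR adjusted p = 8.61e-07), both against day 0. Tgfb1 (ENSMUSG00000002603), the isoform best known for driving fibrosis, had 83.6, 105 and 99.9 CPM at day 0, 45.7, 49.7 and 44.4 CPM at day 4 and 62.4, 84.4 and 76.0 CPM at day 8. Every day 4 library was below every other library. Tgfb1 fell by 1.05 ± 0.15 on the log2 scale at day 4 against day 0 (edgeR adjusted p = 0.000174) and was higher at day 8 than at day 4 by 0.67 ± 0.15 (edgeR adjusted p = 0.0101). At day 8 it remained below day 0 by a smaller step, -0.37 ± 0.14 (edgeR adjusted p = 0.0422), with overlapping libraries. That last call was lost in 6 of 15 alternatives, with no low-count filter and without day 0 replicate 2 or 3, day 4 replicate 3 or day 8 replicate 1 or 3. The log2 fold change was -0.39 to -0.26 in those, and the edgeR adjusted p over all alternatives ran from 0.00132 to 0.133. Tgfb2 was the rarest of the 3, at 6.95 to 10.5 CPM at day 0, 3.66 to 7.62 CPM at day 4 and 3.01 to 5.97 CPM at day 8. It fell at day 8 (-0.90 ± 0.33, edgeR adjusted p = 0.0336) and was not called at day 4 (-0.73 ± 0.33, edgeR adjusted p = 0.0816). The day 8 call was lost in 5 alternatives, those that left out day 0 replicate 1 or 2 or day 8 replicate 2 or 3 and the replicate block, with -0.87 (log2 fold change -0.97 to -0.66, adjusted p up to 0.114). At day 4 Tgfb2 was called without replicate 2 of day 4 (-1.08) and with total counts (-1.04, adjusted p from 0.0103 to 0.249 over the alternatives).

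Both activin chains fell, and 1 of them came back in part. Inhba (ENSMUSG00000041324), which encodes the chain of activin A, had 65.4, 40.5 and 38.2 CPM at day 0, 1.42, 1.63 and 1.38 CPM at day 4 and 15.7, 3.99 and 5.75 CPM at day 8. The day 4 libraries lay close together and below all others, and replicate 1 of day 8 was the highest of its day. Inhba was 32.4-fold lower at day 4 than at day 0 (log2 -5.02 ± 0.51, edgeR adjusted p = 1.85e-05) and 5.65-fold lower at day 8 than at day 0 (-2.5 ± 0.43, edgeR adjusted p = 0.000539). It was higher at day 8 than at day 4 by 2.52 ± 0.48 (edgeR adjusted p = 0.00563). Without replicate 1 of day 8, the day 8 differences from days 0 and 4 became -3.30 and 1.72, both still called. Inhbb, the chain of activin B, had 50.3, 62.0 and 61.4 CPM at day 0, 5.47, 26.8 and 6.18 CPM at day 4 and 9.4, 8.25 and 11.4 CPM at day 8. Its log2 fold changes against day 0 were -2.17 ± 0.50 at day 4 (edgeR adjusted p = 0.00414) and -2.58 ± 0.51 at day 8 (edgeR adjusted p = 0.00125). The sign of its change at day 8 against day 4 turned with replicate 2 of day 4. The difference was -0.41 ± 0.49 with that library (edgeR adjusted p = 0.575) and 0.72 without it, where it was called and the day 4 difference was -3.31 (adjusted p over the alternatives 0.0172 to 0.872 for day 8 against day 4).

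Among the BMP and GDF ligands, Gdf10 (ENSMUSG00000021943), also called BMP3b, had by far the highest level per kilobase of exon. It had 201, 209 and 135 CPM at day 0, 70.6, 184 and 94.9 CPM at day 4 and 16.3, 25.1 and 50.8 CPM at day 8. All day 8 libraries were below all others. Gdf10 fell by 2.56 ± 0.45 on the log2 scale at day 8 against day 0 (edgeR adjusted p = 0.000533) and by 1.92 ± 0.44 against day 4 (edgeR adjusted p = 0.0123). At day 4 against day 0 its change of -0.64 ± 0.42 was not called (edgeR adjusted p = 0.218), while without replicate 2 of day 4 it was -1.13 and called (edgeR adjusted p over the alternatives 0.0199 to 0.493). The day 8 against day 4 call was lost without day 8 replicate 2 (-1.80, adjusted p up to 0.0562). Bmp6 had 3.59 to 4.73 CPM at day 0, 1.75 to 8.38 CPM at day 4 and 1.01 to 2.87 CPM at day 8. It was not called at day 8 against day 0 (-1.21 ± 0.54, edgeR adjusted p = 0.0701), although the libraries of those days did not overlap. It was called by 8 of 15 alternatives, with DESeq2, total counts, no filter, only the 2 days compared, the replicate block (-1.32) and without day 4 replicate 1 or 2 or day 8 replicate 3 (-1.78 to -1.21, adjusted p 0.0154 to 0.204 over all). Against day 4 the day 8 change of Bmp6 was -1.45 ± 0.54 (edgeR adjusted p = 0.0756), or -0.77 without replicate 2 of day 4. It was called there in 4 alternatives, with no filter, with DESeq2 and without day 4 replicate 1 or day 8 replicate 3 (-2.03 to -1.45, adjusted p 0.0149 to 0.255 over all). Bmp4, a BMP known to commit precursors to the fat lineage, was at or near the floor with 6, 5 and 16 counts at day 0, 0, 1 and 0 at day 4 and 5, 2 and 5 at day 8. Bmp2 had 1, 0 and 0 counts at day 0, 0, 4 and 2 at day 4 and 3, 3 and 14 at day 8. Neither was tested.

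The 6 type I receptors all fell on both later days against day 0. Bmpr1b, a BMP receptor, fell furthest. It had 14.8, 8.81 and 10.1 CPM at day 0, 0.250, 0.980 and 0.118 CPM at day 4 and 0.833, 0.0377 and 0.315 CPM at day 8. The later libraries all lay below 1 CPM and none overlapped day 0. Replicate 2 of day 8 had 1 count, under the floor of 3 counts, and replicate 3 of day 4 had 3. Its log2 fold change against day 0 was -4.60 ± 0.75 at day 4 (edgeR adjusted p = 0.000462) and -4.79 ± 0.75 at day 8 (edgeR adjusted p = 0.000277). It was -5.91 at day 4 without replicate 2 of day 4 and -5.93 at day 8 without replicate 1 of day 8. Acvr1, a BMP and activin receptor also known as ALK2, had 81.1, 82.1 and 84.8 CPM at day 0, 13.4, 28.8 and 19.5 CPM at day 4 and 17.7, 14.1 and 16.1 CPM at day 8. All 6 later libraries were below day 0 (-2.01 ± 0.24 at day 4 and -2.37 ± 0.24 at day 8, edgeR adjusted p = 5.24e-05 and 1.5e-05). Smaller falls were seen for Acvrl1, the TGF-beta and BMP receptor ALK1 (-1.01 ± 0.15 at day 4 and -1.32 ± 0.15 at day 8), and Acvr1b, the activin receptor ALK4 (-0.78 ± 0.19 and -1.38 ± 0.20). Tgfbr1, the TGF-beta receptor ALK5 (-0.99 ± 0.27 and -0.84 ± 0.27), and Bmpr1a, the BMP receptor ALK3 (-0.77 ± 0.23 and -0.94 ± 0.23), fell by amounts of that order. Tgfbr1 was no longer called at either day without day 0 replicate 1 (-0.80 at day 4 and -0.65 at day 8, adjusted p up to 0.0511 and 0.0869 over the alternatives), nor Bmpr1a at day 4 (-0.64, adjusted p up to 0.0681). None of the 6 was called between days 8 and 4. Without day 4 replicate 1, Acvr1 (-0.60), Acvrl1 (-0.43) and Acvr1b (-0.74) were called lower at day 8 than at day 4. Acvr1b, at -0.59 ± 0.19 (edgeR adjusted p = 0.0505), was called in 4 more alternatives, those with DESeq2, with its size factors, with no filter and with the replicate block (adjusted p 0.0178 to 0.121 over all).

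The 4 type II receptors did not move together. Tgfbr2, Acvr2a and Bmpr2 fell, and Acvr2b rose. Tgfbr2 (ENSMUSG00000032440), the receptor that binds TGF-beta first, was the most abundant type II receptor per kilobase of exon, with 415, 430 and 538 CPM at day 0, 175, 365 and 236 CPM at day 4 and 98.7, 94.8 and 104 CPM at day 8. Its days did not overlap. It was 1.78-fold lower at day 4 (log2 -0.83 ± 0.24, edgeR adjusted p = 0.0119) and 4.64-fold lower at day 8 (-2.21 ± 0.24, edgeR adjusted p = 2.74e-05), each against day 0. Acvr2a, an activin receptor, had 62.1, 43.3 and 47.8 CPM at day 0, 12, 19.0 and 14.4 CPM at day 4 and 24.7, 9.68 and 14.4 CPM at day 8 (-1.75 ± 0.31 and -1.65 ± 0.31 against day 0, edgeR adjusted p = 0.000835 and 0.000886). Its close relative Acvr2b (ENSMUSG00000061393) had 0.270, 0.389 and 0.207 CPM at day 0, 1.54, 0.653 and 1.30 CPM at day 4 and 1.11, 3.01 and 2.56 CPM at day 8. Every later library was above every day 0 library. The log2 fold change was 2.00 ± 0.52 at day 4 (edgeR adjusted p = 0.00773) and 2.94 ± 0.51 at day 8 (edgeR adjusted p = 0.000567), and neither call was lost in any of the 15 alternatives. Even so, Acvr2b stayed well below Acvr2a per kilobase of exon, at 0.567 ± 0.253 against 2.86 ± 1.35 CPM per kilobase at day 8 (SD, n = 3). Bmpr2, the BMP type II receptor, had 31.1 to 49.3 CPM at day 0, 15.2 to 18.0 CPM at day 4 and 19.5 to 34.0 CPM at day 8. It fell at day 4 (-1.24 ± 0.24, edgeR adjusted p = 0.00133) and, with overlapping libraries, at day 8 (-0.69 ± 0.23, edgeR adjusted p = 0.0233). The day 8 call was lost without day 0 replicate 1 or day 8 replicate 2 or 3 (-0.57 to -0.53, adjusted p up to 0.103).

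The co-receptor gene Tgfbr3, whose product betaglycan presents TGF-beta to its receptors and helps inhibin to bind, had 226, 204 and 269 CPM at day 0, 130, 289 and 180 CPM at day 4 and 97.9, 78.9 and 124 CPM at day 8. It fell at day 8 against day 0 (-1.22 ± 0.27, edgeR adjusted p = 0.00269) and against day 4 (-1 ± 0.27, edgeR adjusted p = 0.0263). It was not called at day 4 against day 0 (-0.22 ± 0.27, edgeR adjusted p = 0.512). Without replicate 2 of day 4 the last value was -0.58 and called (adjusted p over the alternatives 0.0271 to 0.974). The day 8 against day 4 call was lost without day 4 replicate 3 or day 8 replicate 1 or 2 (-1.07 to -0.85, adjusted p up to 0.095). Bambi, a receptor-like decoy without a kinase domain, had 8.17 to 12.6 CPM at day 0, 10.9 to 14.9 CPM at day 4 and 4.82 to 7.83 CPM at day 8. It was lower at day 8 than at day 4 (-0.96 ± 0.24, edgeR adjusted p = 0.0194), a call lost without day 4 replicate 3 or day 8 replicate 1 (-0.95 and -0.77, adjusted p up to 0.0589). Against day 0 its day 8 change of -0.59 ± 0.24 missed the threshold (edgeR adjusted p = 0.054). It was called in 8 of 15 alternatives: with DESeq2, its size factors, total counts, only the 2 days compared, the replicate block (-0.59), and with replicate 3 of day 0, replicate 2 of day 4 or replicate 2 of day 8 left out (-0.95 to -0.59, adjusted p 0.0071 to 0.199 over all alternatives).

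Of the receptor-regulated and common SMADs, 4 of 6 fell on both later days, and the pair downstream of TGF-beta and activin parted. Smad3 (ENSMUSG00000032402) had 77.4, 93.3 and 97.7 CPM at day 0, 18.6, 34.8 and 29.3 CPM at day 4 and 18.3, 14.8 and 22.4 CPM at day 8. All later libraries were below all day 0 libraries, with log2 fold changes of -1.70 ± 0.23 at day 4 (edgeR adjusted p = 0.000145) and -2.27 ± 0.24 at day 8 (edgeR adjusted p = 1.83e-05). Smad2 (ENSMUSG00000024563) had 51.2, 44.9 and 50.8 CPM at day 0, 37.6, 41.8 and 41.4 CPM at day 4 and 49.9, 37.4 and 44.0 CPM at day 8. Its changes of -0.28 ± 0.14 at day 4 (edgeR adjusted p = 0.102) and -0.16 ± 0.14 at day 8 (edgeR adjusted p = 0.316) were not called with TMM scaling. With total counts they were (-0.60 and -0.52, adjusted p 0.00797 to 0.238 and 0.0145 to 0.699 over the alternatives). Smad1 and Smad5, downstream of BMPs, fell as well, Smad1 by 0.89 ± 0.18 at day 4 and 1.25 ± 0.18 at day 8 and Smad5 by 0.88 ± 0.14 and 0.84 ± 0.14, on the log2 scale against day 0. Smad4, the common partner, had 90.0 to 93.2 CPM at day 0, 50.4 to 63.5 CPM at day 4 and 66.3 to 73.7 CPM at day 8, days that did not overlap. Its falls were -0.73 ± 0.13 (edgeR adjusted p = 0.000644) and -0.40 ± 0.12 (edgeR adjusted p = 0.0169), the second lost without day 8 replicate 3 (-0.36) and with no low-count filter (-0.40, adjusted p up to 0.0604). Smad9, the rarest, had 2.49 to 4.05 CPM at day 0, 1.5 to 6.02 CPM at day 4 and 0.911 to 2.26 CPM at day 8, and was not called (-1.01 ± 0.49 at day 8 against day 0, edgeR adjusted p = 0.0946). It was called there in 4 alternatives, without day 4 replicate 1 or 2 (-1.01 and -1.03), with total counts (-1.39) and with only the 2 days compared (-1.02). Its adjusted p was 0.0282 to 0.26 over all alternatives. Between days 8 and 4 none of the 6 SMADs was called. Smad3 (-0.79) and Smad9 (-1.42) were called lower at day 8 without day 4 replicate 1, and Smad4 was called higher (0.44) without day 4 replicate 2. The change of Smad9 was -1.06 ± 0.50 with all libraries (edgeR adjusted p = 0.142) and -0.44 without day 4 replicate 2.

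The inhibitory SMADs differed as well. Smad7 (ENSMUSG00000025880), which blocks TGF-beta and BMP receptors and is itself a target of the pathway, had 24.0, 27.3 and 18.1 CPM at day 0, 4.76, 8.34 and 5.91 CPM at day 4 and 14.1, 15.4 and 11.8 CPM at day 8. The 3 days formed separate ranges with day 4 the lowest. The log2 fold change was -1.87 ± 0.24 at day 4 (edgeR adjusted p = 8.89e-05) and -0.75 ± 0.23 at day 8 (edgeR adjusted p = 0.0141), both against day 0, and 1.12 ± 0.23 at day 8 against day 4 (edgeR adjusted p = 0.00876). The day 8 against day 0 call was lost without day 0 replicate 2 or day 8 replicate 3 (-0.63 and -0.65, adjusted p up to 0.0581). Smad6, the inhibitor biased towards BMP receptors, had 24.2 to 31.9 CPM at day 0, 17.9 to 37.6 CPM at day 4 and 17.8 to 24.4 CPM at day 8, and was not called in any comparison. Without replicate 2 of day 4 it was called lower at day 4 (-0.62) and at day 8 (-0.41) against day 0, where its adjusted p over the alternatives was 0.0103 to 0.962 and 0.0355 to 0.467. At day 8 it was also called lower with total counts (-0.76) and with only the 2 days compared (-0.41).

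The 5 secreted antagonists and follistatin-family genes held the largest fall at day 4 among the 38 genes, that of Grem1, and the largest rise at day 8 against day 0, that of Nog. Grem1 (ENSMUSG00000074934), whose product gremlin binds BMPs, had 46.0, 32.6 and 53.3 CPM at day 0 (1707, 1006 and 1803 counts), 0.0835, 0.907 and 0.0394 CPM at day 4 (2, 25 and 1 counts) and 8.29, 3.28 and 2.21 CPM at day 8 (239, 87 and 63 counts). The days did not overlap, and replicates 1 and 3 of day 4 were under the floor of 3 counts. Grem1 was 121-fold lower at day 4 than at day 0 (log2 -6.92 ± 0.77, edgeR adjusted p = 3.5e-05) and 9.56-fold lower at day 8 than at day 0 (-3.26 ± 0.59, edgeR adjusted p = 0.000708). It was higher at day 8 than at day 4 by 3.67 ± 0.75 (edgeR adjusted p = 0.00783). These sizes rest on single libraries. Without replicate 2 of day 4 the day 4 change was -9.4 and the day 8 against day 4 change 6.13. Without replicate 1 of day 8 the day 8 changes were -4.00 against day 0 and 2.92 against day 4, all called. Nog (ENSMUSG00000048616), which encodes the BMP antagonist noggin, went the other way, with 0.512, 0.324 and 0.325 CPM at day 0, 0.292, 0.943 and 0.709 CPM at day 4 and 4.41, 2.90 and 4.52 CPM at day 8. Only the day 8 libraries stood clear, with a log2 fold change of 3.33 ± 0.44 against day 0 (edgeR adjusted p = 9.53e-05) and 2.59 ± 0.43 against day 4 (edgeR adjusted p = 0.00318). Both were called in all 15 alternatives, while the change of 0.74 ± 0.46 at day 4 against day 0 was not called (edgeR adjusted p = 0.196).

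Fstl1 (ENSMUSG00000022816), a secreted follistatin-like glycoprotein, supplied the largest number of counts of the 40 genes. It had 2898, 2660 and 3020 CPM at day 0, 300, 1383 and 411 CPM at day 4 and 251, 187 and 310 CPM at day 8. Both later days lay below day 0, and replicate 2 of day 4 lay between. The log2 fold change was -2.03 ± 0.48 at day 4 (edgeR adjusted p = 0.00478), or -3.01 without that library, and -3.52 ± 0.51 at day 8 (edgeR adjusted p = 0.000174). At day 8 against day 4 it was -1.48 ± 0.48 (edgeR adjusted p = 0.047). The call was lost in 11 of 15 alternatives: those without any 1 of the day 0 or day 8 libraries, without day 4 replicate 2, with total counts, with DESeq2, with only the 2 days compared and with the replicate block (-1.67 to -0.53, adjusted p up to 0.148). Fst, follistatin, which binds and neutralises activin, had 77.7, 51.4 and 68.0 CPM at day 0, 31.3, 90.3 and 46.6 CPM at day 4 and 21.4, 19.8 and 25 CPM at day 8. It fell at day 8, by 1.57 ± 0.33 against day 0 (edgeR adjusted p = 0.00169) and by 1.35 ± 0.33 against day 4 (edgeR adjusted p = 0.0163). The difference from day 4 was not called without day 8 replicate 1 or 2 (-1.32 and -1.27, adjusted p up to 0.0645). At day 4 against day 0 it was not called (-0.23 ± 0.32, edgeR adjusted p = 0.568), and without replicate 2 of day 4 it was (-0.75, adjusted p 0.00821 to 0.873 over the alternatives). Fstl3, another activin-binding follistatin, had 12.4 to 16.6 CPM at day 0, 5.59 to 7.05 CPM at day 4 and 8.41 to 10.7 CPM at day 8, again 3 separate ranges. It fell at day 4 (-1.19 ± 0.19, edgeR adjusted p = 0.000383) and at day 8 (-0.61 ± 0.18, edgeR adjusted p = 0.0142) against day 0, the second lost without day 0 replicate 1 or day 8 replicate 3 (-0.54 and -0.51, adjusted p up to 0.0572). The rise at day 8 against day 4 (0.58 ± 0.19, edgeR adjusted p = 0.0471) was lost in 10 of 15 alternatives, which included leaving out each library but day 4 replicate 1 and day 8 replicate 3 (0.49 to 0.61, adjusted p up to 0.146). Of the exon bases of Fstl3, 47.3% overlap the antisense gene Prss57 in GENCODE M21, and whether counting used strand is not given in the sources used here.

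**Figure D2:**
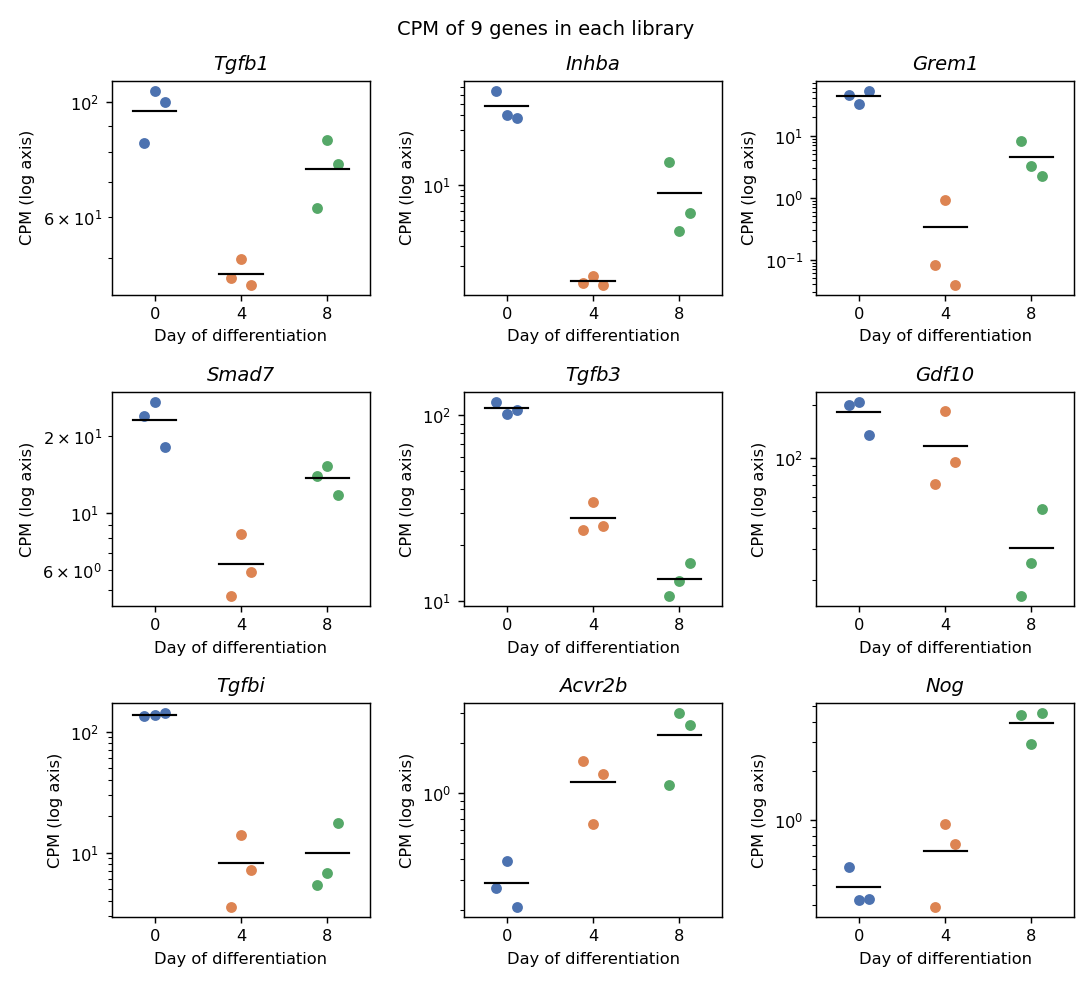
CPM (log axis, with its own range in each panel) of 9 genes in each library against day of differentiation; points are libraries (3 each day) and bars are means. In Tgfb1, Inhba, Grem1 and Smad7 day 4 is the lowest day, with day 8 between days 4 and 0 in Inhba, Grem1 and Smad7. Tgfb3 and Gdf10 are lowest at day 8, Tgfbi is low on both later days, and Acvr2b and Nog are highest at day 8.

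The latent TGF-beta binding proteins, most of which bind latent TGF-beta and tether it to matrix fibres, did not follow 1 course. Ltbp3 (ENSMUSG00000024940) had 281, 293 and 286 CPM at day 0, 148, 165 and 134 CPM at day 4 and 144, 172 and 149 CPM at day 8, a single step down (-0.94 ± 0.13 and -0.89 ± 0.13 against day 0, edgeR adjusted p = 0.000167 and 0.000187). Ltbp2, which does not bind latent TGF-beta, had 166, 142 and 114 CPM at day 0, 8.85, 54.7 and 9.37 CPM at day 4 and 15.5, 17.1 and 13.4 CPM at day 8. It fell by 2.53 ± 0.59 on the log2 scale at day 4 (edgeR adjusted p = 0.00439) and 3.20 ± 0.61 at day 8 (edgeR adjusted p = 0.000976). Without replicate 2 of day 4 the day 4 change was -3.95. The change at day 8 against day 4 was then 0.73 and called, against -0.67 ± 0.57 with it (edgeR adjusted p = 0.418, with 0.0124 to 0.711 over the alternatives). Ltbp1 had 16.2 to 16.4 CPM at day 0, 8.26 to 14.2 CPM at day 4 and 2.03 to 4.17 CPM at day 8. It fell at day 8 (-2.33 ± 0.28 against day 0, edgeR adjusted p = 4.53e-05) and was not called at day 4 (-0.55 ± 0.26, edgeR adjusted p = 0.0971), except without day 4 replicate 2 (-0.76) or day 8 replicate 2 (-0.55) and with total counts (-0.86), with an adjusted p of 0.0237 to 0.269 over the alternatives. Ltbp4 peaked at day 4, with 18.8, 16.1 and 20.1 CPM at day 0, 24.3, 26.6 and 24.9 CPM at day 4 and 8.22, 11.8 and 9.92 CPM at day 8. Its day 4 libraries were all above day 0 by a small step (0.46 ± 0.16, edgeR adjusted p = 0.0321), and its day 8 libraries were all below (-0.88 ± 0.17, edgeR adjusted p = 0.000903). The day 4 call was lost in 6 alternatives, those with total counts, with no filter and without day 0 replicate 1 or 2 or day 4 replicate 1 or 3 (0.14 to 0.49, adjusted p up to 0.47).

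Bmp1 (ENSMUSG00000022098), which despite its name encodes a metalloprotease that trims procollagen and cleaves the BMP antagonist chordin, had 392, 401 and 373 CPM at day 0, 118, 303 and 150 CPM at day 4 and 68.1, 65.3 and 102 CPM at day 8. It stepped down without overlap, by 1.03 ± 0.31 on the log2 scale at day 4 (edgeR adjusted p = 0.0162) and by 2.31 ± 0.32 at day 8 (edgeR adjusted p = 0.000129) against day 0. The day 4 call was lost without day 4 replicate 3 (-0.89, adjusted p up to 0.0674), and that of day 8 against day 4 (-1.28) without day 8 replicate 1 or 2 (-1.18 and -1.16, adjusted p up to 0.069). Tgfbi (ENSMUSG00000035493), a secreted matrix protein named for its induction by TGF-beta, had 134, 137 and 142 CPM at day 0, 3.55, 14.0 and 7.17 CPM at day 4 and 5.45, 6.74 and 17.6 CPM at day 8. Day 0 was far above all later libraries, which overlapped each other. Tgfbi was 16.6-fold lower at day 4 (log2 -4.06 ± 0.53, edgeR adjusted p = 0.000106) and 13.9-fold lower at day 8 (-3.79 ± 0.52, edgeR adjusted p = 0.000114), each against day 0, and -4.68 without replicate 2 of day 4 and -4.50 without replicate 3 of day 8.

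**Figure D3:**
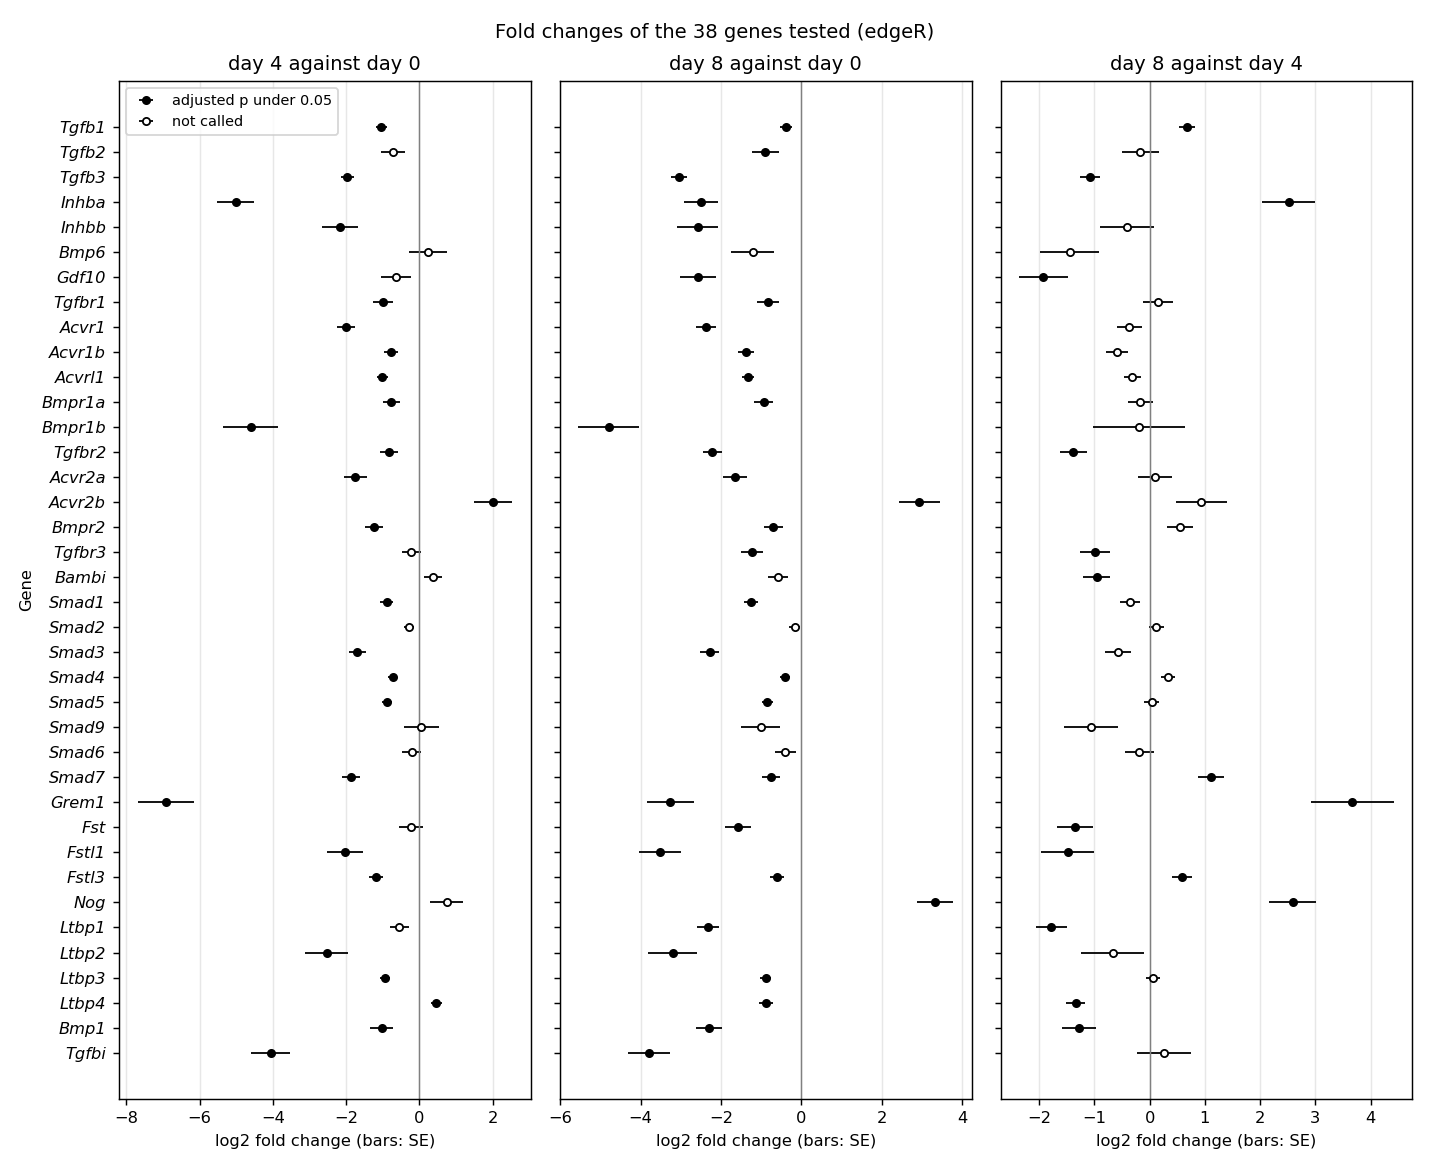
Log2 fold change with its SE (horizontal bars) for the 38 tested genes in the 3 comparisons, from edgeR; filled points have an adjusted p under 0.05 and open points do not. Nearly all filled points lie left of 0 against day 0, while at day 8 against day 4 they fall on both sides, from Gdf10 at -1.92 to Grem1 at 3.67; the horizontal scales differ between panels.

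Between days 8 and 4 the genes split. Of the 38, 6 rose (Tgfb1, Inhba, Smad7, Grem1, Fstl3 and Nog), 10 fell (Tgfb3, Gdf10, Tgfbr2, Tgfbr3, Bambi, Fst, Fstl1, Ltbp1, Ltbp4 and Bmp1) and 22 were not called, with a median log2 fold change of -0.25. Of the 38, 15.8% were called higher and 26.3% lower, against 11.7% and 10.8% of all genes tested (22.4% in all), whose median was 0.00. Called changes of at least 2-fold were upward in 4 and downward in 8 of the 38, against 5.82% and 5.24% of all genes. Of the 16 called, 15 had no overlap between the libraries of the 2 days, with Fstl1 as the exception, against 97.4% of all called genes. Of the 6 that rose, Tgfb1, Inhba, Smad7, Grem1 and Fstl3 were each lower at both later days than at day 0, and Nog was not. This comparison shares the day 4 libraries with that of day 4 against day 0, so a low day 4 value enters both. Without replicate 2 of day 4, 8 rose and 9 fell, and the median was 0.06. Leaving out day 4 replicate 1 gave 16 called lower, and leaving out day 8 replicate 1 or 2 gave 5. The calls over all 14649 genes moved as well. They numbered 3348 without day 4 replicate 2 and 4164 without day 4 replicate 1, against 3285 with all libraries. Without day 8 replicate 1 or 2 they numbered 2125 and 2004. Of these calls, 53.1%, 48.8%, 54.6% and 53.4% were higher, against 52%.

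Because related genes moved unequally, their shares of a set changed. Shares were computed in each library from counts per kilobase of exon, with no test, since an exact permutation of 3 against 3 libraries cannot go below p = 0.10. Among TGF-beta ligands, Tgfb1 supplied 36.2% ± 4.52 at day 0, 50.5% ± 3.70 at day 4 and 75.6% ± 3.41 at day 8, and Tgfb3 61.0% ± 4.16, 44.6% ± 2.80 and 20% ± 2.5 (SD, n = 3), with no overlap between days for either gene. Smad2 supplied 25.8% ± 3.23 of the Smad2 and Smad3 total at day 0, 48.8% ± 6.64 at day 4 and 60.0% ± 4.15 at day 8. Its highest day 0 share was 29.5% and its lowest later share 43.2%. Without division by exon length, mean Smad2 shares on days 0, 4 and 8 were 35.5%, 60.1% and 70.4%. Smad2 thus exceeded Smad3 in the day 4 mean on that scale but not per kilobase. Every later Smad2 share was again above every day 0 share. Day 0 means without length were 50.9% for Tgfb3 and 44.2% for Smad7 among the inhibitory SMADs, so the levels of these shares depend on exon length. Smad7 supplied 35.9% ± 1.62 of the inhibitory SMADs at day 0, 15.7% ± 2.85 at day 4 and 30.9% ± 4.96 at day 8. Ltbp3 made up 59.6% ± 3.69 of the latent binding proteins at day 0, 68.5% ± 7.55 at day 4 and 82.1% ± 0.107 at day 8, and Ltbp2 32.2% ± 4.28, 10.8% ± 9.73 and 9% ± 0.775, with 22.1% in replicate 2 of day 4. Tgfbr2 stayed the main type II receptor, at 83.2% ± 3.94, 88.4% ± 2.55 and 72% ± 6.21, while Acvr2b made up 0.112% ± 0.0456, 0.977% ± 0.621 and 3.47% ± 1.79. Among BMP type I receptors, Acvr1 supplied 31.4% ± 1.23 at day 0, 18.0% ± 4.27 at day 4 and 17.3% ± 0.645 at day 8.

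**Figure D4:**
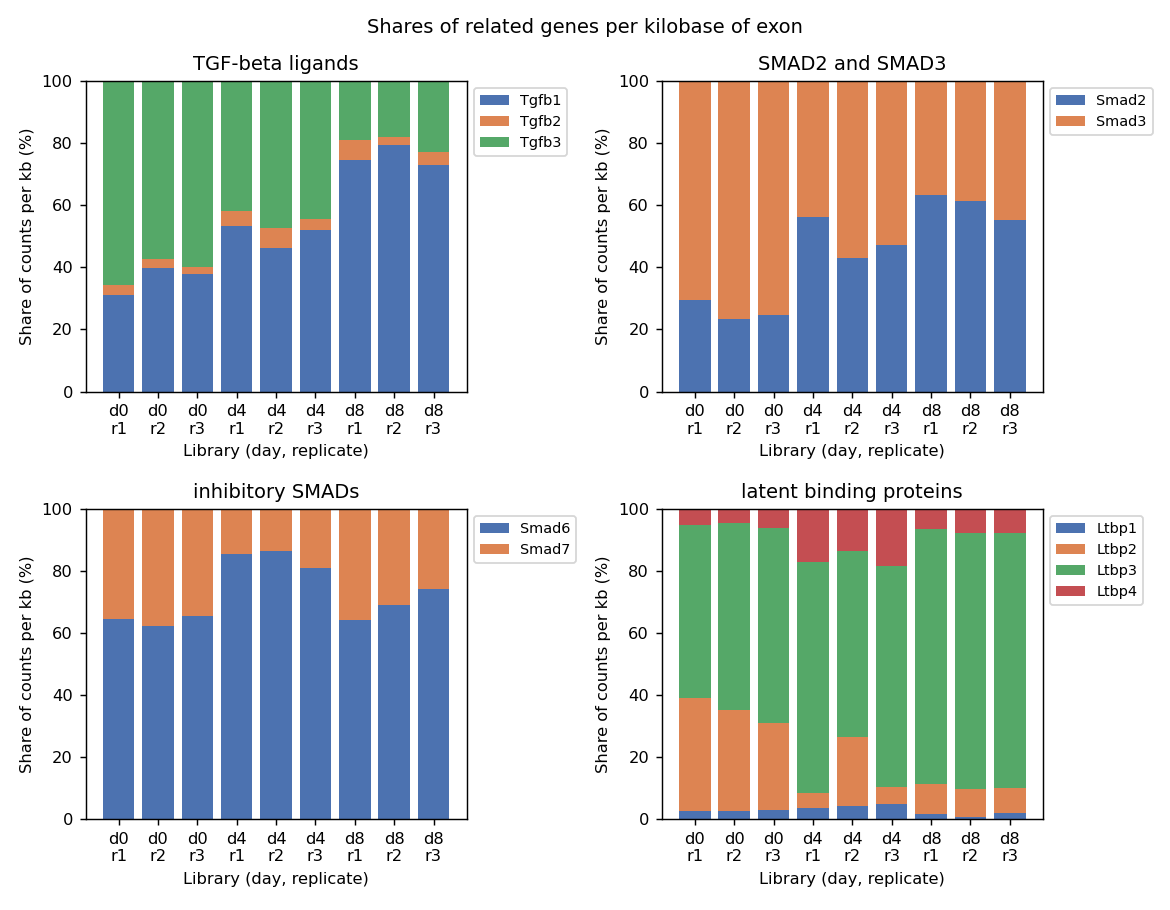
Share of each gene in 4 sets of related genes, in percent of the counts per kilobase of exon, in each library (d, day; r, replicate); bars start at 0 and reach 100. The Tgfb1 share is 31.1 to 39.7% at day 0, 46.4 to 53.4% at day 4 and 72.8 to 79.4% at day 8, and the Smad2 share is higher in all 6 later libraries than at day 0.

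Per kilobase of exon, the order of the levels also changed. At day 0 the highest were Fstl1 at 582 ± 37.3, Tgfbr2 at 56.3 ± 8.23, Bmp1 at 43.8 ± 1.60, Tgfbi at 36.6 ± 1.09, Tgfbr3 at 35.6 ± 5.11 and Gdf10 at 34.9 ± 7.78 CPM per kilobase (SD, n = 3), of which the last 3 had overlapping ranges of mean ± SD. At day 8 they were Fstl1 at 50.8 ± 12.6, Smad4 at 18.7 ± 1.03, Ltbp3 at 17.1 ± 1.63, Tgfbr3 at 15.3 ± 3.42, Tgfb1 at 14.7 ± 2.21 and Tgfbr2 at 12.1 ± 0.585 CPM per kilobase, and after Fstl1 the ranges of mean ± SD of neighbours in this order overlapped.

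Beyond the 40 genes, 111 other genes of the superfamily and its targets were listed, and 86 were tested. At day 4 against day 0, 51 fell (59.3%) and 12 rose (14%), against 26% and 28.6% of all genes. At day 8 against day 0, 54 fell (62.8%) and 19 rose (22.1%), against 29.9% and 33.5% of all genes. At day 8 against day 4, 10 fell (11.6%) and 13 rose (15.1%), close to the 10.8% and 11.7% of all genes. The counts by list that follow are for day 8 against day 0, where the shares of all genes are those just given. Among 9 tested other ligands, 5 rose (55.6%) and 3 fell (33.3%). Gdf15, a circulating stress-responsive ligand, had 97.5, 141 and 62.4 CPM at day 8, against 8.92, 4.92 and 6.06 CPM at day 0 (3.91 ± 0.32), and Bmp3 rose by 3.72 ± 0.55, or 4.43 without day 0 replicate 3. Gdf6 and Gdf11, which fell, had log2 fold changes of -5.71 ± 0.62 and -3.32 ± 0.41. Of 6 tested other receptors and co-receptors, 1 rose (16.7%) and 4 fell (66.7%). Acvr1c, the receptor ALK7 known to be abundant in fat cells, had 1 count in all of day 0, 960 counts at day 4 and 1212 at day 8. The ratio of scaled counts to day 0 was 1470 at day 8 (95% exact counting interval 263 to 58117). Eng, a TGF-beta co-receptor of endothelial cells and fibroblasts, had 10.7, 10.7 and 20.4 CPM at day 8, against 88.6, 77.3 and 82.7 CPM at day 0 (-2.57 ± 0.39). Rgma and Rgmb, BMP co-receptors, fell by 1.25 ± 0.22 and 0.82 ± 0.18 on the log2 scale. All these values and those of the next paragraph are for day 8 against day 0 and had an edgeR adjusted p under 0.05.

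Of 11 tested extracellular antagonists and modulators, 8 fell at day 8 (72.7%) and 3 rose (27.3%), against 29.9% and 33.5% of all genes. Crim1 (-2.13 ± 0.41), Nbl1 (-2.10 ± 0.40) and Bmper (-1.96 ± 0.15), all BMP-binding proteins, fell, and Fstl4 rose (1.48 ± 0.45), a call lost without day 0 replicate 2 (1.23) and with total counts (1.12, adjusted p 0.00289 to 0.0623 over the alternatives). Of 17 genes for the matrix storage and activation of latent TGF-beta, 14 fell (82.4%) and 1 rose (5.88%), against the same shares of all genes. Fbn1, the fibrillin to which latent complexes are tethered, had 101, 77.2 and 136 CPM at day 8, against 1221, 1165 and 1241 CPM at day 0 (-3.53 ± 0.45). The other fibrillin, Fbn2 (-4.03 ± 0.47), the membrane protease Mmp14 (-3.48 ± 0.48) and the TGF-beta-binding proteoglycan Fmod (-3.17 ± 0.47) fell with it. Of 17 regulators of SMADs, 7 were higher (41.2%) and 7 lower (41.2%), a split near the 33.5% and 29.9% of all genes. Tob1, an antiproliferative protein that binds SMADs, had 103, 81.5 and 102 CPM at day 8, against 14.9, 13.2 and 15.4 CPM at day 0 (2.72 ± 0.17), and Zfp423, a zinc finger cofactor of BMP SMADs known in preadipocytes, rose by 2.40 ± 0.20. Pmepa1 (-2.97 ± 0.29), a TGF-beta-induced inhibitor of the pathway, and the corepressor gene Ski (-2.27 ± 0.26) fell.

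Textbook targets of TGF-beta and SMAD3 were lower almost throughout against day 0. Leaving out those that are among the 40 genes, 16 of 17 fell (94.1%, against 26% of all genes) and none rose at day 4 (median log2 fold change -1.65), where Bhlhe40, named here after its values were seen, was the exception (-0.25 ± 0.23, edgeR adjusted p = 0.385). At day 8, 15 of 17 fell (88.2%, against 29.9% of all genes) and 1, Bhlhe40, rose (0.71 ± 0.23, edgeR adjusted p = 0.0215), with a median of -2.19. Acta2, smooth muscle actin, had 189, 161 and 167 CPM at day 8, against 2777, 2516 and 2063 CPM at day 0 (-3.83 ± 0.73), and Ccn2, connective tissue growth factor, had 49.8, 22.2 and 29.7 CPM at day 8, against 448, 563 and 322 CPM at day 0 (-3.71 ± 0.61). Tagln, an actin-binding protein of contractile cells, fell by 3.20 ± 0.53 on the log2 scale. Acta2 and Tagln, and no other of these targets, are also among the contractile markers given above. At day 8 against day 4, 3 of the 17 were higher (17.6%) and 2 lower (11.8%), near the 11.7% and 10.8% of all genes. Without replicate 2 of day 4, 7 were higher and 1 lower, in a fit that called 3348 of the 14649 genes, 53.1% of them higher. Of the targets of BMP, SMAD1 and SMAD5, 11 are not among the 40 genes. Of these, 3 fell (27.3%) and 1 rose (9.09%) at day 4, against 26% and 28.6% of all genes. At day 8, 5 fell (45.5%) and 1 rose (9.09%), against 29.9% and 33.5% of all genes, with medians of -0.48 at day 4 and -0.74 at day 8. With replicate 2 of day 4 left out, 6 were called lower on each day and 1 higher. That fit called 8947 of the 14649 genes at day 4, 50.6% of them higher, and 9848 at day 8, 51.6% of them higher. With all libraries 7998 and 9290 were called. With the 6 that are among the 40 genes, 5 of 17 fell and 1 rose at day 4, and 7 fell and 2 rose at day 8. Hey1, a Notch and BMP target, rose at day 8 (2.49 ± 0.33), with 3.89, 5.5 and 3.40 CPM, against 0.728, 0.648 and 0.888 CPM at day 0. Gata2, a transcription factor known to hold back adipocyte differentiation, was at 0.173, 0.0753 and 0.631 CPM at day 8, against 9.65, 7.25 and 8.05 CPM at day 0 (-4.79 ± 0.73, or -6.00 without day 8 replicate 3).

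**Figure D5:**
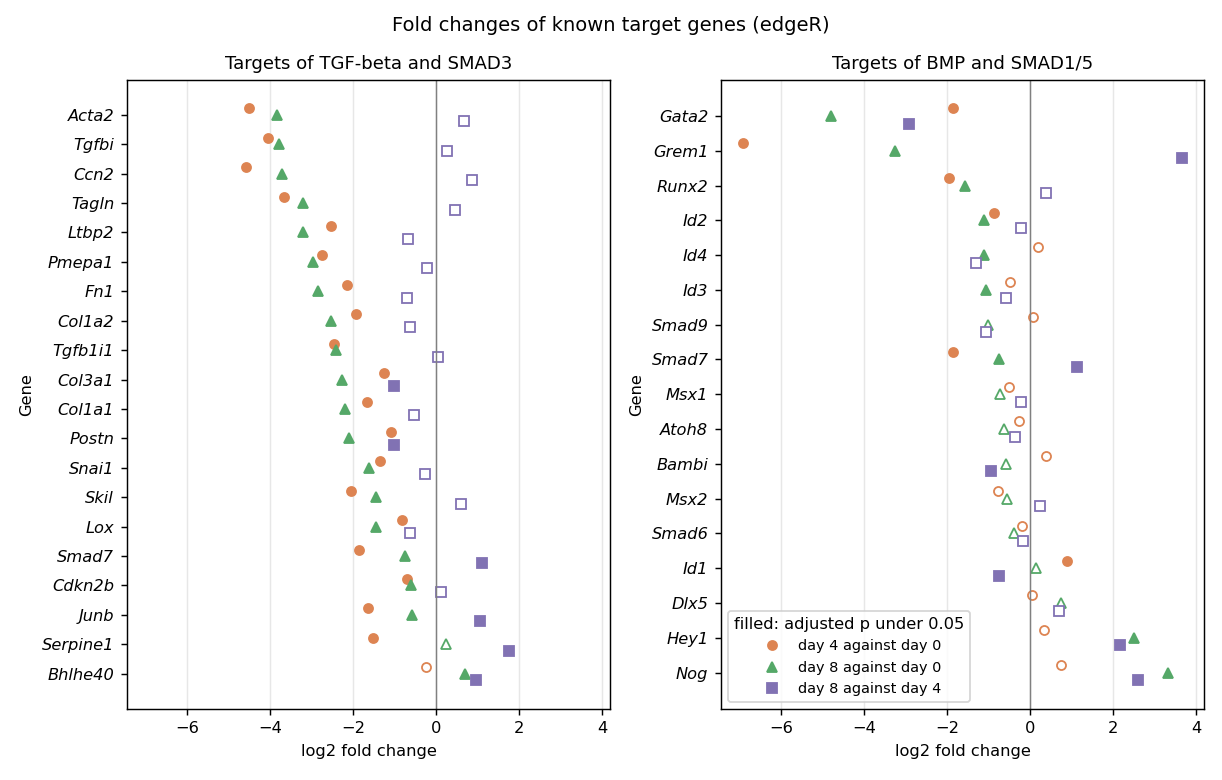
Log2 fold change of textbook targets of TGF-beta and SMAD3 (left) and of BMP, SMAD1 and SMAD5 (right) in the 3 comparisons, from edgeR, ordered by the change at day 8 against day 0; filled symbols have an adjusted p under 0.05. On the left, circles (day 4 against day 0) and triangles (day 8 against day 0) lie left of 0 for nearly every gene. The triangles there run from Acta2 at -3.83 to Bhlhe40 at 0.71. On the right, the triangles run from Gata2 at -4.79 to Nog at 3.33, and the circle of Grem1 lies at -6.92.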

How the data were processed

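RNA of cells lysed with detergent and cycloheximide, taken after the lysate was cleared, was made into libraries with a stranded, ribosomal RNA-depleting total RNA kit, per the labels' protocols. The authors deposited raw counts per Ensembl gene, with no normalization; alignment with HISAT2 to GRCm39 and counting with featureCounts are per the submitters' processing notes, and tool versions, the strand setting and the annotation used are not given in the sources used here. Exons of 13 of the 40 genes overlap other genes in GENCODE M21, at most 12.4% of a gene's exon bases (Tgfb3) apart from Fstl3, so their counts are less certain.

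In R 4.3.3, filterByExpr with a count minimum of 10 and a total of 15 left 14649 of 55359 genes to be tested, and 30671 had no count. All 9 libraries entered 1 edgeR 4.0.16 quasi-likelihood fit (two-sided F-tests) with TMM scaling and no covariates (6 residual degrees of freedom, biological coefficient of variation 22.7%). P-values were adjusted by Benjamini-Hochberg over all tested genes, with a threshold of 0.05. CPM use TMM-scaled totals, which ranged from 26387408 to 31474490 before scaling. Libraries of a day differed by more than sampling noise (chi-square per degree of freedom 16.1 to 234) and were kept as separate replicates. Intervals and floors cover counting error only. Exon lengths came from GENCODE M21 (build GRCm38), without coordinates, and promoters from RefSeq (GRCm38.p6). The fit was tested on simulated data. Alternatives were size factors or total counts as scaling, no filter, DESeq2 1.42.0, only the 2 days compared, the replicate number as a block and leaving out each library. The genes, lists and tests were chosen with earlier results of these data known. Of each list of other genes, up to 4 with the largest change at day 8 against day 0 among those called are named, and all 40 could be named. Per-kilobase shares carry no test.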

Additional observations from a re-analysis of the deposited data

How the results depend on the processing

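Each of the 40 genes that was tested, and each other named gene, was recomputed under 15 alternatives. Genes called higher at day 4 against day 0 numbered 1 with total counts, 1 with no filter and 1 to 2 with 1 library left out, against 2. Leaving out 1 library gave 23 to 31 called lower at day 4 and 26 to 35 at day 8 against day 0, and 5 to 8 higher and 5 to 16 lower at day 8 against day 4. Over all genes, 6583 to 8947 and 8219 to 9848 were called at days 4 and 8 against day 0, and 1895 to 4164 at day 8 against day 4, where a fit of only the 2 days compared gave 1901, against 3285. Other pathway genes at day 8 against day 4 numbered 7 to 17 higher and 3 to 20 lower with a library left out, with 19 lower with no filter and 17 with DESeq2, against 10; these counts over other genes were added after seeing the data. The cause of these shifts was not tested.

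Signs turned only for differences that were not called. At day 4 against day 0, Bmp6 became -0.044 with total counts and ran from -0.46 to 0.63 with 1 library left out; Smad9 became -0.24 with total counts and -0.046 with the replicate block and ran from -0.59 to 0.41; Tgfbr3 ran from -0.58 to 0.011 and Fst from -0.75 to 0.060. At day 8 against day 4, leaving out 1 library gave -0.38 to 0.17 for Tgfb2, -0.77 to 0.72 for Inhbb, -0.086 to 0.42 for Tgfbr1, -0.48 to 0.019 for Bmpr1a, -1.33 to 1.10 for Bmpr1b and -0.33 to 0.37 for Acvr2a. It gave -0.018 to 0.12 for Smad5, -0.38 to 0.21 for Smad6, -1.07 to 0.73 for Ltbp2, -0.026 to 0.11 for Ltbp3 and -0.44 to 0.87 for Tgfbi. The positive ends for Tgfb2, Inhbb, Bmpr1b, Smad6, Ltbp2, Ltbp3 and Tgfbi came without day 4 replicate 2.

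The replicate numbers do not settle whether libraries were paired. Of 9 same-numbered pairs, 2 had deviations correlated above 0.1 (r from -0.126 to 0.273), and 5 of 9 libraries correlated best with their own number. Each day 0 library correlated best with the day 8 library of its number (r = 0.273, 0.138 and 0.0859). Day 0 and day 8 libraries of unlike number had r from -0.18 to 0.0366. Same-numbered pairs with a day 4 library had r from -0.126 to 0.0662. The replicate block gave 8070, 9368 and 3105 called genes in the 3 comparisons, 2, 2 and 6 of the 40 genes higher and 25, 32 and 10 lower. A count of 3, or about 0.1 CPM, limits what can be said of Bmp2 and Bmp4 and of Grem1 at day 4 and Bmpr1b at days 4 and 8.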
